A study of Mus musculus with 6 samples.

Results

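The 10 genes described here encode enzymes that cut the extracellular matrix and proteins at the cell surface, together with inhibitors of metalloproteinases. The enzymes are the matrix metalloproteinases Mmp2, Mmp3, Mmp9, Mmp12, Mmp13 and Mmp14 and the membrane-bound protease Adam8. The inhibitors are the tissue inhibitors of metalloproteinases Timp1, Timp2 and Timp3. The 10 genes were taken by symbol from a table of 55357 mouse genes, and all 10 were found and were expressed highly enough to be tested. The table holds RNA-seq of cortical astrocytes cultured from C57BL/6 embryos at embryonic day 18. BRAF KE–transfected cultures (KE, n = 3) received a plasmid in which the CMV promoter, which is active in most cell types, drives FLAG-tagged BRAF carrying K499E. Nontransfected cultures (NT, n = 3), whose genotype the labels call naive, received no plasmid. RNA was collected 48 hours after transfection, by a protocol text that the labels repeat for NT without a separate time. No culture with an empty plasmid or with wild-type BRAF is among the samples analysed here, so the transfection itself and the BRAF mutation cannot be told apart. Neither the labels nor the methods say whether the cultures of a group came from separate dissections, so p-values measure only the spread between these cultures, which may be technical.

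Matrix metalloproteinases are zinc enzymes that are made as inactive proenzymes and become active when their propeptide is removed. TIMPs bind the active site of the mature enzymes and block it, and each TIMP inhibits a wide range of metalloproteinases. In the brain these proteins act on the basement membrane of vessels, on perineuronal nets and on growth factors and receptors, and reactive astrocytes, microglia and invading leukocytes are among their sources. Transcription of several MMP genes is known to respond to RAS/ERK signaling through AP-1, the FOS and JUN factors that bind a short palindromic sequence near the start site.

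Between BRAF KE–transfected and nontransfected astrocytes, the 10 genes moved in different directions. Mmp3, Mmp14 and Timp1 were upregulated, Adam8, Mmp12, Mmp13 and Mmp2 were downregulated, and Mmp9, Timp2 and Timp3 did not pass the test. The changes ran from a mean 10.6-fold lower in KE for Adam8 to a mean 1.91-fold higher in KE for Timp1. A gene was called a DEG when limma, fitted on log2(normalized count + 1) over all 15280 tested genes, gave an adjusted p-value under 0.05. Of all tested genes, 25.3% were called up and 26.0% down, 51.3% in either direction. The 3 upregulated and 4 downregulated genes of the 10 stand against that background and are not set apart from it by their number. Likewise no KE value lay within the NT range, or the reverse, for 6 of the 10 genes, against 59.9% of all tested genes. The median log2FC of the 10 genes was -0.01, beside 0.00 over all tested genes, and the median size of the log2FC was 0.62, beside 0.30.

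**Figure D1:**
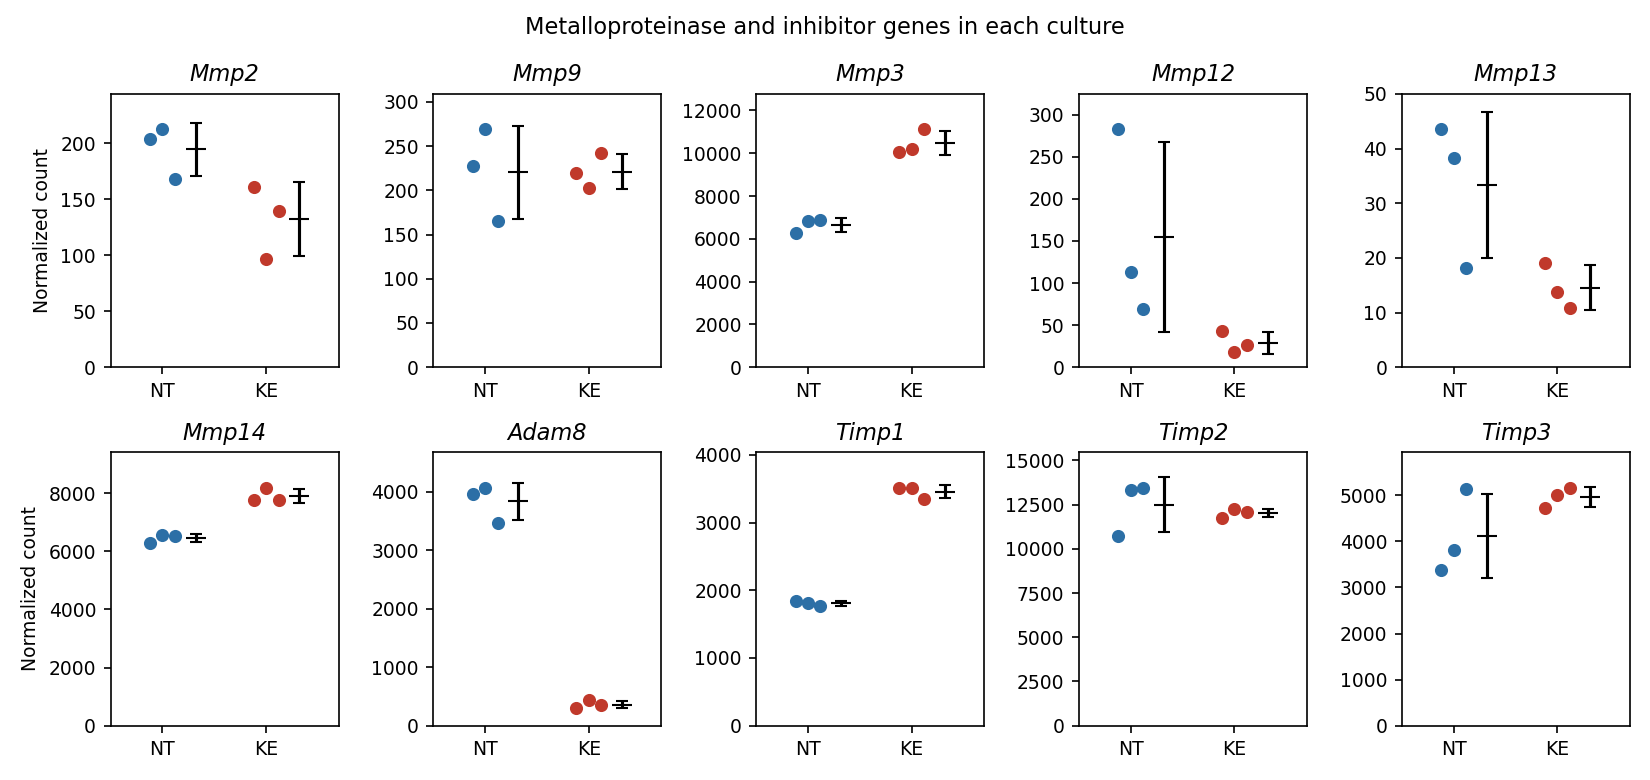
Normalized count of each of the 10 genes (y axis, starting at 0, one scale per gene) in every nontransfected (NT, blue) and BRAF KE–transfected (KE, red) culture, with points in the order of replicates 1 to 3 and bars giving the mean ± SD of 3 cultures. KE lay wholly above NT for Mmp3, Mmp14 and Timp1 and wholly below it for Adam8, Mmp12 and Mmp2, and the points of Mmp13, Mmp9, Timp2 and Timp3 overlap.

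The measure was the normalized count, taken here as a read count per gene divided by the DESeq2 size factor of the culture. These counts summed to between 30472429 and 30895529 per culture, and an approximate depth of 24500000 to 34100000 reads per culture was read from the worth of 1 read in each, with KE replicate 2 the shallowest. Across genes, Pearson's r was at least 0.989 within a group and at most 0.95 between groups, a description only, since genes are not independent replicates. Braf, the transfected gene, had a mean normalized count of 36979 ± 3464 (SD, n = 3) in KE and 894 ± 73.1 in NT (log2FC 5.37, limma, adjusted p = 2.1e-11). The astrocyte markers Slc1a3, a glutamate transporter, Gfap, the glial intermediate filament, and Aldh1l1, a folate enzyme, had NT means of 39859, 17292 and 12873, and all 3 were upregulated (log2FC 0.25, 0.87 and 0.72). Of the 13 astrocyte markers 12 were tested, of which 7 were up and 2 down, and their summed normalized counts were 160569 to 163434 in KE and 114903 to 120361 in NT. Microglia and macrophage markers were also present and differed between the groups: each of the 20 was tested and called down, and their log2FC had a median of -3.35. Their sum was 58498 to 69772 in NT and 6966 to 9800 in KE, and none was at 0. Neutrophil markers were nearly absent. Of 8, none was expressed highly enough to be tested and Ly6g, S100a9, Mpo, Elane and Ngp were listed at 0 in every culture, whereas S100a8 was listed at 0 in KE and between 8.22 and 19.2 in NT.

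The sequence just upstream of the annotated start is shown first for the 4 genes of the set that hold an AP-1 motif there, because this motif is the one best known to link MMP genes to RAS/ERK signaling. The motifs searched in the 250 bases before the start of the canonical transcript were AP-1 (TGANTCA, both strands), PEA3, the ETS factor motif (AGGAAG, both strands), and TATAAA (sense strand only), and no match of one overlapped a match of another in the 10 genes. An AP-1 motif was found upstream of 4 of the 10 genes and of 6.17% of 21770 protein-coding genes. The last 120 bases before the start are given 5′ to 3′ on the gene's own strand in GRCm39, with the Gencode vM39 start, and capitals mark AP-1, AGGAAG and TATAAA matches. The windows are chr9:7445702-7445821 for Mmp3, chr2:164790019-164790138 for Mmp9, chr9:7347254-7347373 for Mmp12 and chr9:7272394-7272513 for Mmp13. All 4 lie on the plus strand and outside exons. Those of Mmp3 and Mmp13 are intergenic, and those of Mmp9 and Mmp12 are within introns of longer annotated forms of the same gene.
Mmp3: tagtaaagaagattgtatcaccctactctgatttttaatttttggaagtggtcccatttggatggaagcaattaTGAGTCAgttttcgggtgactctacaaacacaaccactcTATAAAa
Mmp9: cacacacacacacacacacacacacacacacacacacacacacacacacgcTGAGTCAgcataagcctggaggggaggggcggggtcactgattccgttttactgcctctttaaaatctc
Mmp12: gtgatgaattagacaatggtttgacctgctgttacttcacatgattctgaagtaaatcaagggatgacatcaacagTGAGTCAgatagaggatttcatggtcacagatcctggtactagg
Mmp13: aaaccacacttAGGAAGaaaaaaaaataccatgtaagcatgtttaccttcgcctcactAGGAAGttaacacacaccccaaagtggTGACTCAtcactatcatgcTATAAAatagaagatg
The AP-1 motif began 46 bases before the start in Mmp3, 69 in Mmp9, 44 in Mmp12 and 35 in Mmp13. The motif as searched reads the same on both strands, so a match has no direction of its own. Mmp3, Mmp9 and Mmp12 shared the same 7 letters on the gene's own strand. The letters of Mmp13 are those same 7 read from the opposite strand, and so are not a different form of the motif. TATAAA was found in Mmp3 and Mmp13 alone, against 8.03% of all genes, and AGGAAG in Mmp3, Mmp13, Mmp14, Timp1, Timp2 and Timp3, against 28.9%. In Mmp3 that AGGAAG match lay 183 bases before the start, outside the stretch shown. None of the 3 motifs was found upstream of Adam8 or Mmp2. A match describes the letters of the sequence and is not evidence that a factor binds there. The 4 genes with the AP-1 motif did not share a direction: Mmp3 was upregulated, Mmp12 and Mmp13 were downregulated, and Mmp9 was not called.

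Mmp3 (ENSMUSG00000043613, chr9:7445822-7455975, plus strand, 10 exons in the canonical transcript) encodes stromelysin-1, which cuts proteoglycans, laminin and fibronectin and activates other proenzymes, among them that of Mmp9. Its normalized count was 10076, 10206 and 11123 in KE and 6294, 6812 and 6863 in NT. Every KE culture was above every NT culture, and the difference between the groups was far larger than the spread within either. The means were 10469 ± 571 and 6656 ± 315 (SD, n = 3), a 1.57-fold higher level in KE (log2FC 0.65, 95% confidence interval 0.52 to 0.79, limma, adjusted p = 6.2e-06). Mmp3 kept its call under every alternative that was tried.

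Mmp14 (ENSMUSG00000000957, chr14:54668878-54682821, plus strand) encodes the membrane-type enzyme MT1-MMP, which cuts collagen at the cell surface and activates the proenzyme of Mmp2. In KE its normalized count was 7772, 8194 and 7768, and in NT it was 6306, 6569 and 6541. The groups did not overlap, although the rise was small beside that of Mmp3. The means were 7911 ± 244 and 6472 ± 144 (SD, n = 3), 1.22-fold higher in KE (log2FC 0.29, 95% confidence interval 0.17 to 0.40, limma, adjusted p = 0.00083).

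The gelatinases Mmp2 and Mmp9, which degrade type IV collagen of basement membranes and denatured collagens, were both expressed at low levels. Mmp2 (ENSMUSG00000031740, chr8:93553902-93580049, plus strand) had 161, 96.5 and 139 normalized counts in KE and 204, 213 and 168 in NT. All KE cultures lay below all NT cultures, but KE replicate 1 came close to NT replicate 3. The means were 132 ± 32.8 and 195 ± 23.6 (SD, n = 3), a log2FC of -0.58 (95% confidence interval -0.997 to -0.163, limma, adjusted p = 0.0245). The call was lost when KE replicate 2 was left out, where the log2FC was -0.37 and the adjusted p = 0.0784 (limma), and also without NT replicate 1 or NT replicate 2. Markers of mesenchymal cells moved too: of 10, all tested, 3 were up and 5 down, with a median log2FC of -0.42, a summed level of 4463 to 4693 in KE and 5936 to 8113 in NT, and none at 0. The smooth muscle genes Tagln and Acta2 were among those that fell (log2FC -1.17 and -1.34), as was the collagen gene Col3a1 (log2FC -0.59). Their part in the lower Mmp2 level was not tested. Mmp9 (ENSMUSG00000017737, chr2:164780439-164797771, plus strand) had 220, 203 and 242 normalized counts in KE and 228, 269 and 165 in NT. The KE values all fell inside the NT range, and no difference was detected. Its log2FC was 0.03 with a 95% confidence interval of -0.34 to 0.40 (limma, adjusted p = 0.896) and its interval reaches well beyond 0 on both sides.

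Mmp12 (ENSMUSG00000049723, chr9:7344381-7369499, plus strand) encodes macrophage metalloelastase, an elastin-degrading enzyme best known from macrophages. It had 43.5, 18.02 and 25.8 normalized counts in KE and 283, 113 and 68.5 in NT. The groups did not overlap, but the NT cultures themselves differed 4.12-fold, with NT replicate 1 the highest. The means were 29.1 ± 13.0 and 155 ± 113 (SD, n = 3), 5.31-fold lower in KE, and the log2FC was -2.21 with a wide 95% confidence interval of -3.21 to -1.20 (limma, adjusted p = 0.00198). Mmp12 nevertheless kept its call when any single culture was left out, with a log2FC between -2.67 and -1.65.

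Mmp13 (ENSMUSG00000050578, chr9:7272514-7283331, plus strand) encodes collagenase-3, which cuts fibrillar collagens. Its normalized count was 19.0, 13.8 and 10.9 in KE and 43.6, 38.3 and 18.1 in NT, close to the minimum mean of 10 set for testing. NT replicate 3 lay below KE replicate 1, so the groups overlapped. The log2FC was -1.09 (95% confidence interval -1.92 to -0.26, limma, adjusted p = 0.0321), the least firm of the calls among the 10 genes. It was lost in 6 of 13 alternatives, among them leaving out KE replicate 2, KE replicate 3, NT replicate 1 or NT replicate 2, where limma gave adjusted p = 0.0693, 0.105, 0.130 and 0.104. Together with Mmp2 this set the number of downregulated genes of the 10, which was 2 instead of 4 without KE replicate 2, NT replicate 1 or NT replicate 2.

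Adam8 (ENSMUSG00000025473, chr7:139558845-139572475, minus strand, 24 exons in the canonical transcript) encodes a metalloproteinase-disintegrin that sheds surface proteins and is found on myeloid cells. Its normalized count was 305, 435 and 346 in KE and 3972, 4072 and 3470 in NT. The lowest NT culture was several-fold above the highest KE culture, the widest gap among the 10 genes. The means were 362 ± 66.1 and 3838 ± 323 (SD, n = 3), 10.6-fold lower in KE (log2FC -3.41, standard error 0.12, 95% confidence interval -3.67 to -3.16, limma, adjusted p = 7.0e-09). Only 147 of the 15280 tested genes, 0.962%, had a log2FC at or below that of Adam8. Microglia and macrophage markers fell alongside: C1qa, a complement component, had a log2FC of -3.12, and Itgam, the CD11b integrin chain, one of -4.07. In bulk RNA, fewer cells of a type and less RNA per cell cannot be told apart.

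**Figure D2:**
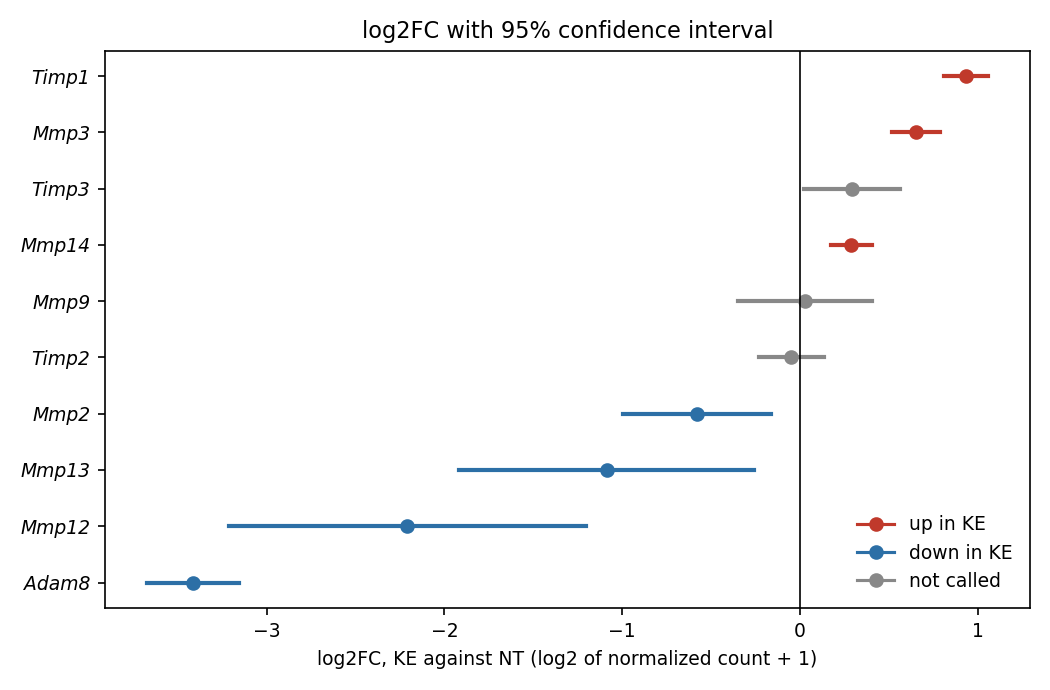
The log2FC (x axis, KE against NT, on log2 of normalized count + 1) of each of the 10 genes with its 95% confidence interval from limma, 3 cultures per group, in order of the log2FC and coloured by the call. Adam8 at -3.41 and Timp1 at 0.93 form the ends, the interval of Mmp12 is the widest, and that of Timp3, which did not pass the adjusted threshold, runs from 0.02 to 0.56.

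To set the 10 genes beside those markers in each culture, the mean log2(normalized count + 1) of the 20 microglia and macrophage markers was subtracted from the log2 level of each gene. The marker mean itself was 7.95 in KE and 11.1 in NT, a difference of -3.15. Relative to it Adam8 stood at 0.47, 0.45 and 0.70 in KE and at 0.79, 0.77 and 0.84 in NT. These values are not corrected for gene length, so only their difference between KE and NT is read. Adam8 was lower relative to the markers in KE by 0.26 on the log2 scale, with no overlap between the groups. Mmp12 stood at -2.31, -4.07 and -3.00 in KE and at -3.02, -4.39 and -4.80 in NT, overlapping ranges. Mmp13, by the same measure, was higher in KE than in NT in every culture (a difference of 2.07), as were Mmp2 (2.57) and Mmp9 (3.18), which fell less than the markers or not at all. The part of the microglia and macrophage markers in the changes of Adam8, Mmp12, Mmp13 and Mmp2 was not tested. When the mean of the astrocyte markers was subtracted instead, which was higher in KE by 0.24, Timp1 remained higher in KE by 0.69 and Mmp3 by 0.41 without overlap between the groups, whereas Mmp14 overlapped (a difference of 0.05).

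**Figure D3:**
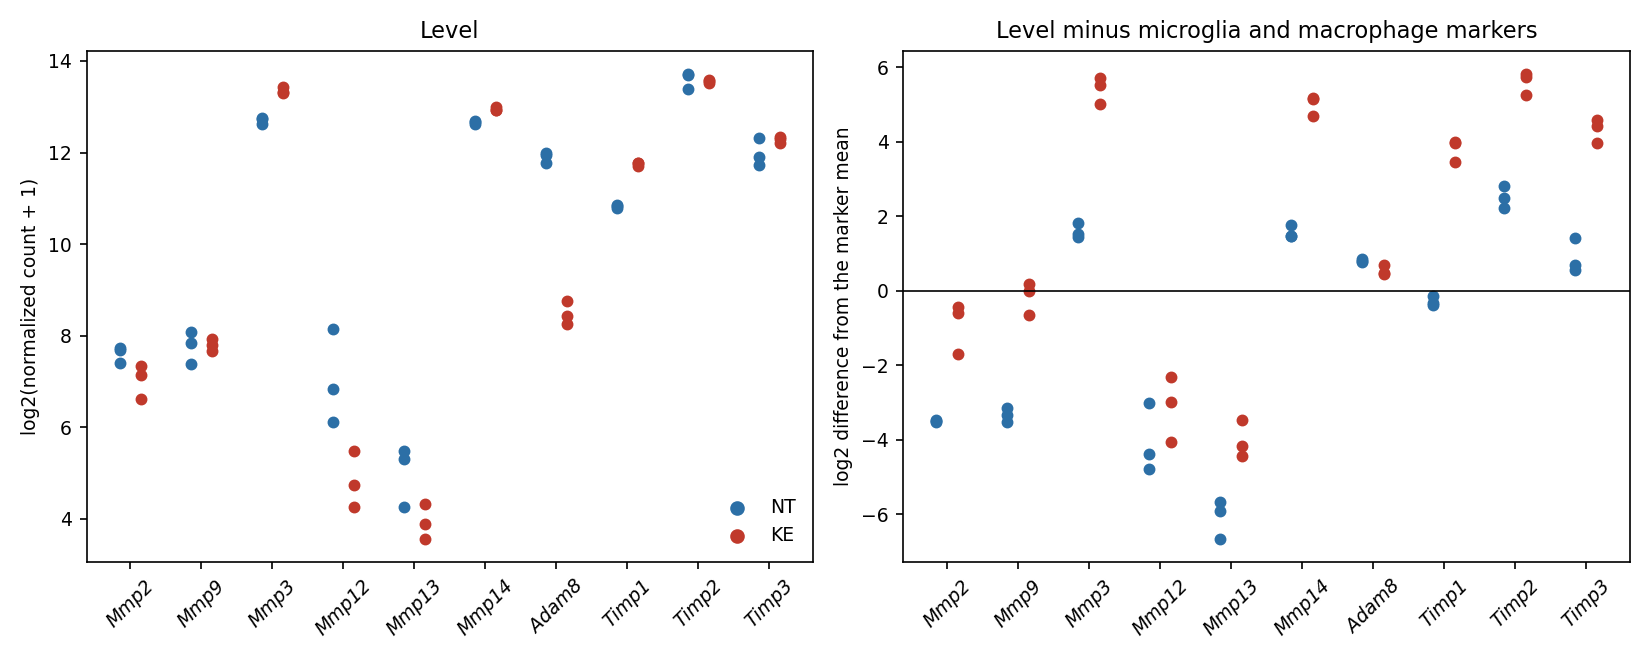
Left, log2(normalized count + 1) of each gene in every NT (blue) and KE (red) culture, and right, the same value minus the mean of the 20 microglia and macrophage markers in that culture, not corrected for gene length. In the right panel the Adam8 points of both groups lie between 0.45 and 0.84, the Mmp12 points of the groups overlap, and the KE points of the other 8 genes lie above the NT points.

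Timp1 (ENSMUSG00000001131, chrX:20736316-20740976, plus strand), the inducible TIMP and a gene often reported from reactive astrocytes, was the most strongly upregulated of the 10. It had 3515, 3508 and 3344 normalized counts in KE and 1842, 1819 and 1763 in NT. Both groups were tight and lay far apart, with means of 3456 ± 96.8 and 1808 ± 40.8 (SD, n = 3). Timp1 was 1.91-fold higher in KE (log2FC 0.93, standard error 0.06, 95% confidence interval 0.81 to 1.06, limma, adjusted p = 2.1e-07), and no alternative changed its call. The gene lies within Syn1, which encodes a synaptic vesicle protein and is read from the opposite strand. Syn1 had 274, 290 and 301 normalized counts in KE and 203, 200 and 201 in NT and was itself called up (log2FC 0.52, limma, adjusted p = 0.00181). The library kit keeps the strand, but the strand setting used in counting is not given in the sources used here, so reads of the pair could not be checked for misassignment.

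Timp2 (ENSMUSG00000017466, chr11:118191887-118246566, minus strand), which inhibits MMPs and also takes part with Mmp14 in activating the Mmp2 proenzyme, had 11745, 12229 and 12086 normalized counts in KE and 10702, 13307 and 13456 in NT. The KE values lay within the NT range, and the log2FC was -0.05 (95% confidence interval -0.23 to 0.13, limma, adjusted p = 0.656). Timp3 (ENSMUSG00000020044, chr10:86136236-86185371, plus strand), the TIMP that binds to the matrix and also inhibits ADAM proteases, had 4720, 5006 and 5165 in KE and 3389, 3806 and 5143 in NT. NT replicate 3 was level with the KE cultures while the others of its group were lower. The log2FC was 0.29 (95% confidence interval 0.02 to 0.56) and did not pass the threshold (limma, adjusted p = 0.065). Without NT replicate 3 it was 0.47 and was called (limma, adjusted p = 0.000443). Timp3 lies within Syn3, which is on the opposite strand and was low (23.3 to 49.9 normalized counts over the 6 cultures) and not called.

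For their order, the levels of the 10 genes were expressed as the normalized count per kilobase of merged exons. In NT, Mmp3 was the highest of the 10 at 3696 ± 175 per kb (SD, n = 3), followed by Timp2 at 2798 ± 347, Mmp14 at 1050 ± 23.4, Timp1 at 924 ± 20.8, Adam8 at 828 ± 69.6 and Timp3 at 505 ± 112. All neighbours in this order were apart in every culture. The others were much lower: Mmp9 at 59.6 ± 14.2 overlapped Mmp2 at 55.1 ± 6.68, and Mmp12 at 21.4 ± 15.6 overlapped Mmp13 at 12.5 ± 5.02. In KE the order was Mmp3 (5813 ± 317), Timp2 (2693 ± 55.7), Timp1 (1766 ± 49.5), Mmp14 (1283 ± 39.6), Timp3 (609 ± 27.7), Adam8 (78.1 ± 14.2), Mmp9 (59.8 ± 5.31), Mmp2 (37.4 ± 9.30), Mmp13 (5.44 ± 1.54) and Mmp12 (4.02 ± 1.80). Timp1 thus moved above Mmp14, and Adam8 moved from the group of abundant genes to just above Mmp9, while Mmp13 and Mmp12 overlapped in KE. With the length of the canonical transcript in place of the merged exons, Timp1 was above Timp2 in KE and Mmp12 above Mmp13 in KE, while the order in NT was the same. The levels themselves depended on that choice, with NT means of 2322 for Mmp14, 1929 for Timp1, 871 for Timp3 and 42.9 for Mmp12 on the canonical length.

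**Figure D4:**
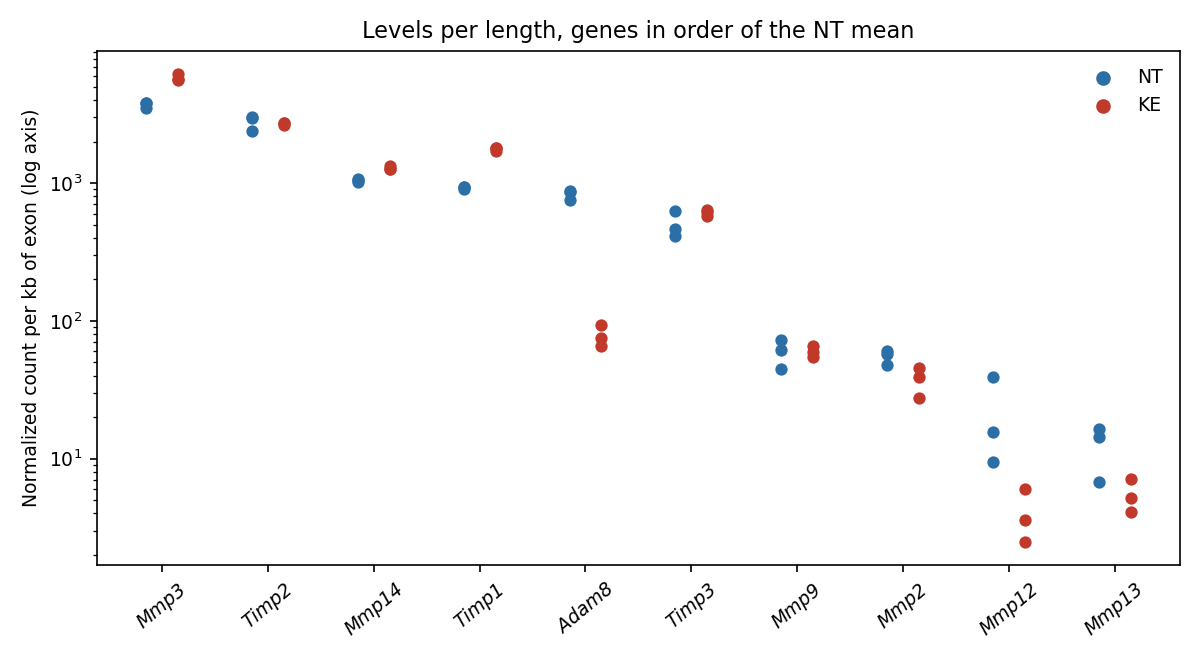
Normalized count per kilobase of merged exons (y axis, log scale) of the 10 genes, in order of their NT mean, in every NT (blue) and KE (red) culture. Mmp3 is the highest in both groups, and Adam8 drops from a mean of 828 per kb in NT to 78.1 per kb in KE.

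Summed per kb over the 7 proteases, the level was 7039 to 7623 in KE and 5548 to 5888 in NT, and over the 3 TIMPs it was 5007 to 5147 in KE and 3755 to 4547 in NT. Each KE culture exceeded all NT cultures in both sums, and the ratio of proteases to TIMPs overlapped, at 1.39 to 1.51 in KE and 1.26 to 1.48 in NT. With canonical transcript lengths the TIMP sum was 7884 to 8067 in KE and 5539 to 6560 in NT, and the ratio also overlapped (1.09 to 1.17 and 1.13 to 1.31), and the order of the group means turned. No test was run on these sums and ratios, which are given as a description. Adam8 is part of the protease sum, and no ratio without Adam8 was computed. The makeup of each sum did differ between the groups. Mmp3 made up 78.9% to 81.0% of the protease sum in KE and 63.0% to 66.5% in NT, whereas Adam8 made up 0.936% to 1.31% in KE and 13.1% to 15.4% in NT. Timp1 made up 33.8% to 35.9% of the TIMP sum in KE and 19.8% to 25.1% in NT.

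Mmp13, Mmp12 and Mmp3 belong to a row of 10 Mmp genes on chromosome 9, spanning 427074 bases from 7272514 to 7699587. Within this row neighbouring genes differed in direction, since Mmp12 was downregulated and Mmp3, the next gene on the same strand, was upregulated. Only 1 other gene of the row, Mmp8, the neutrophil collagenase, was tested. Mmp8 was listed at 0.90, 0 and 1.81 normalized counts in KE and 29.7, 19.7 and 20.04 in NT. It reached the minimum mean of 10 only through its NT values, so its call as downregulated follows in part from that minimum and is not read as a result. The other 6 were below the minimum, with Mmp1a, Mmp20 and Mmp7 listed at 0 in all 6 cultures. An AP-1 motif was found upstream of 8 of the 10 genes of the row, including genes listed at 0, and was not found for Mmp8 and Mmp27. Mmp1b overlaps the end of Mmp12 on the opposite strand and had at most 0.99 normalized counts in any culture.

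Of 17 other Mmp genes, 9 were tested, of which 4 were up and 3 down, Mmp8 among the latter (median log2FC 0.45), where 25.3% of all tested genes were called up and 26.0% down. Mmp28, epilysin, rose the most (log2FC 1.56, from 54.2 ± 12.7 to 159 ± 2.46 normalized counts, SD, n = 3), followed among the better expressed genes by Mmp19 (0.60) and Mmp11 (0.46). The membrane-anchored Mmp15 and Mmp17 fell (log2FC -0.53 and -0.47). Among 12 other Adam genes, 9 were tested, of which 1 was up and 5 down (median log2FC -0.15), again beside 25.3% and 26.0% of all tested genes. Adam23, which lacks protease activity and binds integrins, rose (log2FC 1.17), and Adam19 fell (-1.41), with smaller falls of Adam9 (-0.38), the main alpha-secretase Adam10 (-0.33) and Adam12 (-0.26). The fall of Adam8 was thus larger than that of any other tested Adam gene. Without KE replicate 2 the upregulated Adam genes were 2 instead of 1.

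The secreted ADAMTS proteases, several of which cut the lecticans of brain matrix, were tested in 14 of 19 cases, and all 14 were called, 3 up and 11 down, without overlap between groups in any of them. Over all tested genes 51.3% were called, 25.3% as up and 26.0% as down, and in 59.9% the groups did not overlap. Their median log2FC was -0.78, beside 0.00 over all tested genes. When single cultures were left out, 8 to 11 ADAMTS genes were called down and 3 up. The genes that rose were Adamts1 (log2FC 0.86, from 6689 ± 440 to 12130 ± 958 normalized counts, SD, n = 3), Adamts4 (0.40) and Adamts5 (0.39). Among those that fell with a mean of at least 100 were Adamts3, which processes procollagen (-0.82), Adamts10 (-0.79), Adamts7 (-0.77) and Adamts9 (-0.39).

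Of 12 genes for other inhibitors, activators and regulators of metalloproteinases, all tested, 3 were up and 4 down (median log2FC 0.01), shares near the 25.3% and 26.0% of all tested genes. Plau, urokinase, which activates plasminogen, had 102, 121 and 120 normalized counts in KE and 551, 631 and 685 in NT (log2FC -2.43, limma, adjusted p = 6.8e-08). Every KE culture was below every NT culture for this gene. Bsg, the MMP inducer basigin (log2FC 0.45), and Plat, the tissue plasminogen activator (0.15), rose. The call of Plat was close to the threshold (limma, adjusted p = 0.0495). Timp4 (-0.59), the urokinase receptor Plaur (-0.34) and the proprotein convertase Pcsk7 (-0.27) fell. The downregulated count was 2 instead of 4 without KE replicate 1, KE replicate 3, NT replicate 1 or NT replicate 2. The upregulated count was 2 instead of 3 when any single culture other than KE replicate 2 was left out. Of 31 matrix genes, the substrates of these enzymes, 29 were tested, of which 8 were up and 12 down (median log2FC -0.15), the upregulated share being near the 25.3% of all tested genes and the downregulated one above 26.0%. The hyaluronan receptor Cd44 (log2FC 0.74), osteopontin Spp1 (0.65), the proteoglycan Agrn (0.56) and laminin Lama4 (0.49) rose, and elastin Eln (-1.52), fibronectin Fn1 (-1.16), laminin Lamb1 (-0.95) and decorin Dcn (-0.65) fell. Without KE replicate 3 or NT replicate 1 the upregulated matrix genes were 5. Dcn, Col1a1, Col1a2 and Col3a1 are in both the matrix list and the mesenchymal marker list.

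**Figure D5:**
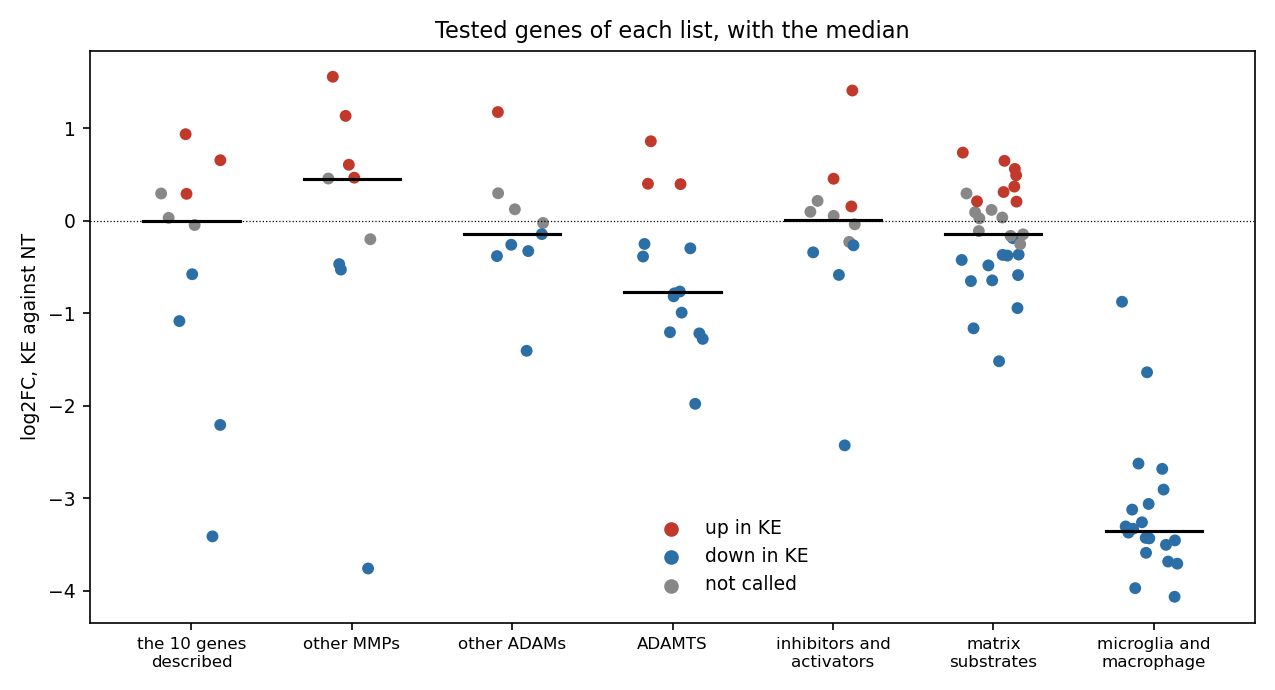
The log2FC (y axis, KE against NT) of every tested gene in the set of 10 and in 6 other gene lists, coloured by the limma call, with bars at the median and horizontal scatter added only to separate points. The 20 microglia and macrophage markers centre on -3.35, Adam8 at -3.41 lies within their range, and the ADAMTS genes centre on -0.78.

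Markers of other cell types that such cultures can hold moved less than those of microglia. Of 10 oligodendrocyte lineage markers, 9 were tested, 1 up and 7 down (median log2FC -0.55), with summed levels of 29787 to 34867 in KE and 38171 to 38399 in NT. Olig1 and Olig2, transcription factors of the lineage, fell (-0.20 and -0.55) and the myelin enzyme Cnp rose (0.38). Of 8 endothelial markers, 4 were tested and 2 were down (median log2FC -0.62), with sums of 296 to 334 in KE and 438 to 541 in NT. Flt1 and Pecam1 fell (-0.62 and -0.86), and Vwf was not called (-0.63). Of 10 neuronal markers, 8 were tested, 2 up and 2 down (median log2FC 0.10), with sums of 6845 to 7251 in KE and 8819 to 9495 in NT. The neuronal genes Map2 and Stmn2 fell (-0.51 and -0.58) and Tubb3 rose (0.43). None of these markers was listed at 0 in all 6 cultures, and their part in the changes of the 10 genes was not tested.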

How the data were processed

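RNA-seq of 6 cultures, 3 KE and 3 NT, was analysed from a single table of 55357 genes, with groups and replicate numbers from the sample titles, and no per-sample column was left unmapped. The authors deposited a normalized signal per culture: per the methods, reads were trimmed with Trim Galore, aligned with STAR and counted with Salmon, and counts were divided by DESeq2 size factors. The methods name GRCm39 with Gencode vM28, in a paragraph on other tissues that mentions astrocytes for a cutoff, while the submitters' processing notes list GRCh38. The identifiers are mouse ones. The unnamed batches the methods mention could not be modelled. Size factors remove depth, and whole reads could not be recovered, since between 74.7% and 77.6% of the low values came to a whole read with a tolerance of 0.1, so no count test was run.

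From these values, log2(normalized count + 1) was fitted by group with limma 3.58.1 in R 4.3.3, with a variance trend, for the 15280 genes that averaged 10 or more. P-values are two-sided and Benjamini-Hochberg adjusted over all of them. Adding 1 shrinks the log2FC of weakly expressed genes. The fit was tested on simulated data. Intervals are 95% limma intervals. Coordinates, lengths and upstream sequence came from Gencode vM39 on GRCm39, in which 54749 identifiers were found. The RefSeq promoter table is of another build and was not used, and protein sequences were not analysed here.

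The 10 genes and all lists were chosen with earlier results of these data known, so their counts are descriptions. All 10 genes are given in full. From the family lists the called genes with a mean of at least 100 and the largest changes were named, up to 4 in each direction, and from the marker lists the 3 with the highest means, with Braf as the check of the transfection. Values of some genes that this rule names are not reported here. Mmp8, Syn1, Syn3 and the other genes of the chromosome 9 row were named for their position. Alternatives were pseudocounts of 0.5 and 5, no filter or a minimum mean of 50, quantile and 75th percentile scaling, limma without trend, the replicate number as a block, and leaving out each culture. No culture was left out of the reported values.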

Additional observations from a re-analysis of the deposited data

How the results depend on the processing

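Adam8, Mmp3, Mmp14, Timp1 and Mmp12 kept their direction and their call under all 14 alternatives. Over the 10 genes, 122 of 139 values kept both the sign of the log2FC and their side of the threshold, and 226 of 238 counts of genes called stayed within 1.5 times the reported count. No scaling moved the median log2FC of all genes by more than 0.03, and the share of calls that were up ran from 47.7% to 52.8%. The call of Mmp2 was lost with quantile normalization (log2FC -0.44, adjusted p = 0.071, limma). Without the trend limma lost Mmp2 (adjusted p = 0.0616) and Mmp13 (adjusted p = 0.0525), so that 2 of the 10 genes were downregulated and 5 matrix genes upregulated. With no filter Mmp13 had an adjusted p of 0.0529 (limma), and with a minimum mean of 50 it was not tested. When single cultures were left out, the downregulated genes of the 10 numbered 2 to 4, the log2FC of Mmp2 ran from -0.74 to -0.37, of Mmp13 from -1.46 to -0.85, of Mmp9 from -0.16 to 0.19, of Timp2 from -0.15 to 0.01 and of Timp3 from 0.17 to 0.47. Mmp9 changed sign without KE replicate 3 (-0.04) or NT replicate 3 (-0.16), and Timp2 without NT replicate 2 (0.0022) or NT replicate 3 (0.010), none of them called. Over the same settings 2 to 4 control genes were downregulated, 5 to 9 matrix genes upregulated and 1 to 2 other Adam genes upregulated. Fewer samples leave fewer degrees of freedom, and the cause of each other change was not tested.

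The replicate numbers 1 to 3 occur in both groups, but the labels do not say that they mark a shared preparation. Deviations of same-numbered cultures correlated at 0.059, 0.066 and 0.065 and those of other pairs at -0.05 to -0.01, so each culture correlated best with its own number, a hint from the data and not from the design. With a replicate block 8046 genes were called in place of 7844, and Timp3 was called (adjusted p = 0.0221, limma), which made 4 of the 10 upregulated. No other call among the 10 changed. The limit that depth sets on single genes was not measured, since whole reads could not be recovered.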
